A study of Mus musculus with 24 samples.

Results

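The bile acid and organic anion transporters of the liver were followed here through 10 genes, taken as every probe whose accession in the array files maps to Slc10a1, Slc10a2, Slco1a4, Slco1b2, Slc22a7, Abcb4, Abcb11, Abcc2, Abcc3 or Abcc4. They had 14 probes of 41174 non-control probes on the array and are 10 of 17904 genes with a probe that passed the filter on dim signals. All 10 genes had a kept probe. The study measured total liver RNA of male C57BL/6N mice on 24 Agilent arrays of 2 colours. Liver RNA carried Cy5, and a common reference RNA carried Cy3. The groups given ethanol at 8 weeks were E8wMB (ethanol diet with binges of 5 g/kg given 2 times per week, 4 arrays), E8w1B (ethanol diet and 1 binge of 5 g/kg, 5 arrays) and E8w (ethanol diet alone, 5 arrays), and their control was P8w (pair-fed, 4 arrays). At 10 days the groups were E10d1B (ethanol diet and 1 binge of 5 g/kg, 3 arrays) and P10d (pair-fed, 3 arrays). The labels do not give the age of the mice or the time between the last binge and the collection of tissue, and no group received a binge without the ethanol diet. Nothing in them states whether replicates were different mice, and the p-values below therefore cover only the spread among these samples, which may be technical.

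Hepatocytes take up bile acids and organic anions from sinusoidal blood through carriers of the SLC10, SLCO and SLC22 families, and pump bile acids, phospholipid and conjugates into the bile canaliculus through ABC transporters. A further set of ABC transporters on the basolateral side returns bile acids and conjugates to blood, and is known to be raised in cholestasis while uptake carriers are lowered. Slc10a2 is best known from the ileum, the kidney and bile duct epithelium, where it takes up bile acids together with sodium.

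The arrays were scanned in 3 sets. The first held P8w, E8w and E8w1B on 5 slides, the second held the 10-day groups on 4 slides, and the third held E8wMB alone on 2 slides. For every comparison of E8wMB, and for P8w against P10d, the scan and the group cannot be told apart. In the difference between the 8-week and 10-day effects, each effect was taken within a scan. Length of feeding and scan cannot be told apart there either. Median Cy5 intensity ran from 95.5 to 247 over the 24 arrays, and 1.34% to 7.64% of spots were marked by the scanner software as non-uniform or outlying and were left out. Bright members lost values in this way. Slc10a1 lost 11 arrays, Abcb11 lost 10 and Slco1b2 lost 7, and both Slc10a1 and Abcb11 lost all 4 arrays of E8wMB. A gene was tested where at least 2 arrays of both groups remained, and a fit with marked spots kept gives the missing comparisons. Of the hepatocyte markers 7 of 8 had a probe, and all 7 were well above background on every array. The reference is labelled as RNA from assorted mouse tissues, while other fields of that channel name liver, so a ratio is read here only against the same gene in another group.

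A call was a Benjamini-Hochberg adjusted p under 0.05 over all genes tested (limma). After 1 binge on 8 weeks of ethanol, the uptake carriers Slc10a1, Slco1a4, Slco1b2 and Slc22a7 fell relative to ethanol alone, while Slc10a2 and the basolateral exporter Abcc4 rose. In E8w1B against E8w, 2 of the 10 members tested rose and 4 fell, where 7.5% of all genes tested rose and 8.06% fell. In E8w1B against P8w, 2 of 8 rose and 3 fell, beside 6.98% of all genes higher and 8.39% lower. Ethanol diet without a binge moved 1 of 8 members in E8w against P8w, Slc10a2, which fell, where 0.0574% of all genes rose and 0.0803% fell.

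At 10 days, in E10d1B against P10d, Slc10a2, Slc22a7 and Abcb11 rose and Slco1a4 fell, so that 3 of 9 rose and 1 fell, where 4.16% of all genes rose and 2.84% fell. In E8wMB against P8w 2 of 7 rose and 0 fell, beside 7.52% and 13.4% of all genes. Against E8w, E8wMB had 2 of 8 higher and 0 lower, beside 9.78% and 15.9% of all genes. Against E8w1B it had 3 of 8 higher and 1 lower, beside 11.8% and 18.4% of all genes. Between the pair-fed groups, P8w against P10d, 2 of 8 members were higher and 0 were lower, beside 1.17% and 0.463% of all genes. The difference between the 8-week and 10-day effects of ethanol plus binge was called above 0 for 0 and below 0 for 1 of 7 members, beside 0.914% and 2.42% of all genes. The median member difference was -0.32 in E8w1B against E8w and -0.35 in E10d1B against P10d, beside 0.01 and -0.01 over all genes tested. With marked spots kept, over all 10 members, these medians were -0.42 and -0.0735. With marked spots kept all 10 members were tested, and 2 rose and 6 fell in E8w1B against P8w, beside 7.56% and 9.23% of all genes, but that fit reads a brighter second probe for Slc10a2, Abcb4 and Abcc3.

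**Figure D1:**
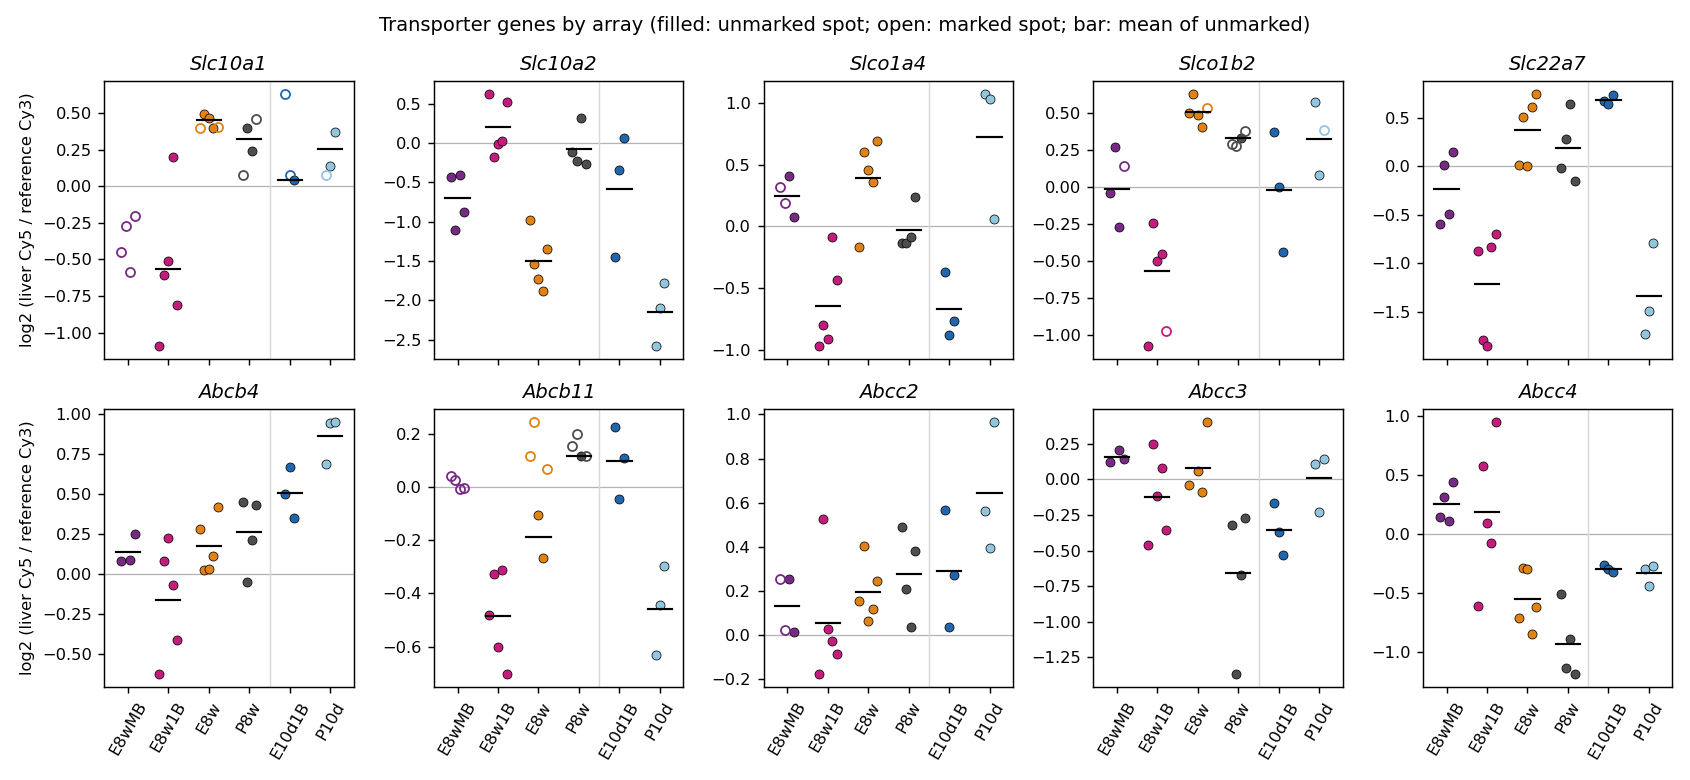
Log2 ratio of liver (Cy5) over reference (Cy3) for the 10 transporter genes, one point per array and one column per group, with bars at the mean of unmarked spots and a grey line between the 8-week and 10-day groups. Open points are spots marked by the scanner software, drawn for genes with 1 probe. Slc22a7 was low in E8w1B and in P10d, with all 3 E10d1B arrays between 0.65 and 0.73.

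Slc22a7 (NM_144856, mouse chromosome 17, position 46432185 to 46438477 in GRCm38) encodes an organic anion carrier of the sinusoidal membrane, and its probe was measured on all 24 arrays. In E8w1B its log2 ratio was -0.87, -1.79, -1.85, -0.83 and -0.69, against 0.01, 0.50, -0.0010, 0.61 and 0.75 in E8w. In P8w it was -0.01, 0.28, 0.64 and -0.15. All 5 E8w1B arrays lay below every array of E8w and P8w. It fell by 1.58 on the log2 scale (SE 0.23, limma adjusted p = 4.32e-05) against E8w, a 2.99-fold difference, and was lower in E8w1B on 5 of 5 slides. Against P8w the log2 difference was -1.40 (SE 0.25, limma adjusted p = 0.000324), lower on 4 of 4 slides that held both. The Cy3 reference differed by -0.09 and -0.05 in these comparisons. In a whole tissue, fewer cells of a type and less RNA per cell cannot be told apart.

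The same gene moved the other way at 10 days. Its log2 ratio was 0.67, 0.65 and 0.73 in E10d1B, against -1.73, -1.49 and -0.79 in P10d, and the groups did not overlap. The log2 difference was 2.02 (SE 0.30, limma adjusted p = 0.000106), a 4.06-fold difference. With the slide as a block it was 1.83, though only 2 slides held arrays of both 10-day groups. Slc22a7 was higher in E10d1B on 2 of 2. The difference between the 8-week and 10-day effects was -3.42 (SE 0.39, limma adjusted p = 4.04e-05), and it remained called with the slide as a block at -3.23. The 10-day pair-fed arrays were themselves low. P8w was higher than P10d by 1.53 (SE 0.28, limma adjusted p = 0.00921), but the call was lost without P10d replicate 1 (1.33, adjusted p = 0.0578) and without P10d replicate 2 (1.45, adjusted p = 0.0632). The Cy3 reference for this probe also differed between those scans, by 1.05, and the difference of Cy5 alone was 2.58. The part of the scan in this result was not tested. Ordered by mean log2 ratio, the groups ran P10d (-1.34), E8w1B (-1.21), E8wMB (-0.23), P8w (0.19), E8w (0.37) and E10d1B (0.68), and E8w1B and E8wMB were the only neighbours in that order whose arrays did not overlap.

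Slc10a1 encodes the sodium-dependent carrier that takes up most conjugated bile acids, known as NTCP. In E8w1B its log2 ratio was -1.09, -0.61, -0.51, 0.20 and -0.81, against 0.50, 0.47 and 0.40 on the 3 unmarked arrays of E8w. P8w had 0.40 and 0.24 on its 2 unmarked arrays. E8w1B replicate 4 was the highest of its group, and all 5 arrays lay below those of E8w and P8w. Slc10a1 fell by 1.02 on the log2 scale against E8w (SE 0.21, limma adjusted p = 0.00429), a 2.02-fold difference. Against P8w it fell by 0.885 (SE 0.24, limma adjusted p = 0.0224). Median centring of the arrays in place of loess ended both calls (adjusted p = 0.125 and 0.287), and the second was also lost with the scanner software's own ratio (adjusted p = 0.052), with Cy5 alone (adjusted p = 0.0566) and with only the compared groups (adjusted p = 0.0815). The difference from P8w lay between -0.89 and -0.80 in those 4 fits. With marked spots kept, P8w had 0.08, 0.40, 0.24 and 0.46, and the E8w1B array at 0.21 then lay within that range, while the difference was -0.86 (limma adjusted p = 0.000925).

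Slco1b2 and Slco1a4 encode sodium-independent organic anion carriers of the sinusoidal membrane. Slco1b2 had log2 ratios of -1.08, -0.25, -0.50 and -0.46 on the 4 unmarked E8w1B arrays, against 0.50, 0.63, 0.48 and 0.40 in E8w. The groups did not overlap, and the gene fell by 1.07 (SE 0.19, limma adjusted p = 0.000696). Slco1a4 had -0.97, -0.80, -0.91, -0.09 and -0.44 in E8w1B, against -0.16, 0.60, 0.46, 0.36 and 0.69 in E8w. E8w1B replicate 4 and E8w replicate 1 overlapped, yet Slco1a4 was lower on 5 of 5 slides and fell by 1.03 (SE 0.20, limma adjusted p = 0.00085). Against P8w its difference was -0.61 (SE 0.21, limma adjusted p = 0.0512), which misses the threshold and was called under 7 of the other settings, among them the replicate block (adjusted p = 0.0379). At 10 days Slco1a4 had -0.37, -0.88 and -0.76 in E10d1B, against 1.07, 1.03 and 0.06 in P10d. P10d replicate 3 was the lowest of its group, and the groups did not overlap. The fall was 2.62-fold (-1.39, SE 0.25, limma adjusted p = 0.00145). For Slco1b2 the 10-day difference was -0.35 (SE 0.24, limma adjusted p = 0.491), and for Slc10a1, tested with marked spots kept, it was 0.07 (SE 0.21, limma adjusted p = 0.916).

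Slc10a2 (NM_011388, mouse chromosome 8, position 5083219 to 5105287 in GRCm38), the ASBT carrier, followed a course of its own. In E8w1B its log2 ratio was 0.63, -0.17, -0.01, 0.03 and 0.52. In E8w it was -0.98, -1.53, -1.73, -1.88 and -1.35, and in P8w it was -0.11, -0.23, 0.32 and -0.27. All 5 E8w arrays lay below every array of both other groups, while E8w1B and P8w overlapped. Slc10a2 fell by 1.42 in E8w against P8w (SE 0.25, limma adjusted p = 0.0145), a 2.68-fold difference that was lower on 4 of 4 shared slides. That call was lost without P8w replicate 2 (-1.48, adjusted p = 0.0501), P8w replicate 3 (-1.29, adjusted p = 0.0901) or E8w replicate 3 (-1.36, adjusted p = 0.0506). With 1 binge added it rose by 1.69 against E8w (SE 0.24, limma adjusted p = 2.48e-05), higher on 5 of 5 slides. E8w1B against P8w differed by 0.27 (SE 0.25, limma adjusted p = 0.545).

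The 10-day values of Slc10a2 were -1.45, -0.35 and 0.06 in E10d1B, against -2.58, -2.09 and -1.78 in P10d. E10d1B replicate 1 was the lowest of its group and still lay above all of P10d. The gene rose by 1.58 (SE 0.30, limma adjusted p = 0.00195), a 2.98-fold difference. P8w was 4.23-fold higher than P10d (2.08, SE 0.28, limma adjusted p = 0.00146), with a Cy3 difference of -0.33 between those scans. The difference between the 8-week and 10-day effects was -1.30 (SE 0.39, limma adjusted p = 0.072), and it was called once slide entered the fit (-1.64, adjusted p = 0.0179). Cholangiocyte markers were well above background on all arrays (8 of 8), and 0 of 8 were called in E8w1B against E8w, E8w against P8w, E10d1B against P10d or P8w against P10d. The shares of all genes called in those comparisons are given above. In the comparisons of E8wMB, which are also comparisons between scans, many genes of all kinds were called. In E8wMB against E8w1B, 2 of 8 cholangiocyte, 2 of 5 ileal and 2 of 6 kidney tubule markers were lower and 0 higher in each list. Of all genes, 18.4% were lower and 11.8% higher there. In E8wMB against E8w, 1 of 8, 1 of 5 and 3 of 6 were lower and 1 ileal marker was higher. The shares of all genes were 15.9% lower and 9.78% higher. In E8wMB against P8w 0 of 8, 2 of 5 and 3 of 6 were lower, and 1 cholangiocyte and 1 ileal marker were higher. Beside these, 13.4% of all genes were lower and 7.52% higher. The mean log2 ratio per array of the 5 cholangiocyte markers measured on all 24 arrays ran from -0.07 to 0.55 in E8w1B. It ran from -0.08 to 0.18 in E8w and from -0.05 to 0.11 in P8w. Among ileal markers 5 of 6 had a kept probe, and in E8w1B against E8w 1 was called higher and 1 lower. Among kidney tubule markers 0 of 6 were called there. Of all genes tested, 7.5% were higher and 8.06% lower in that comparison. The part of these cell types in the Slc10a2 result was not tested.

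**Figure D2:**
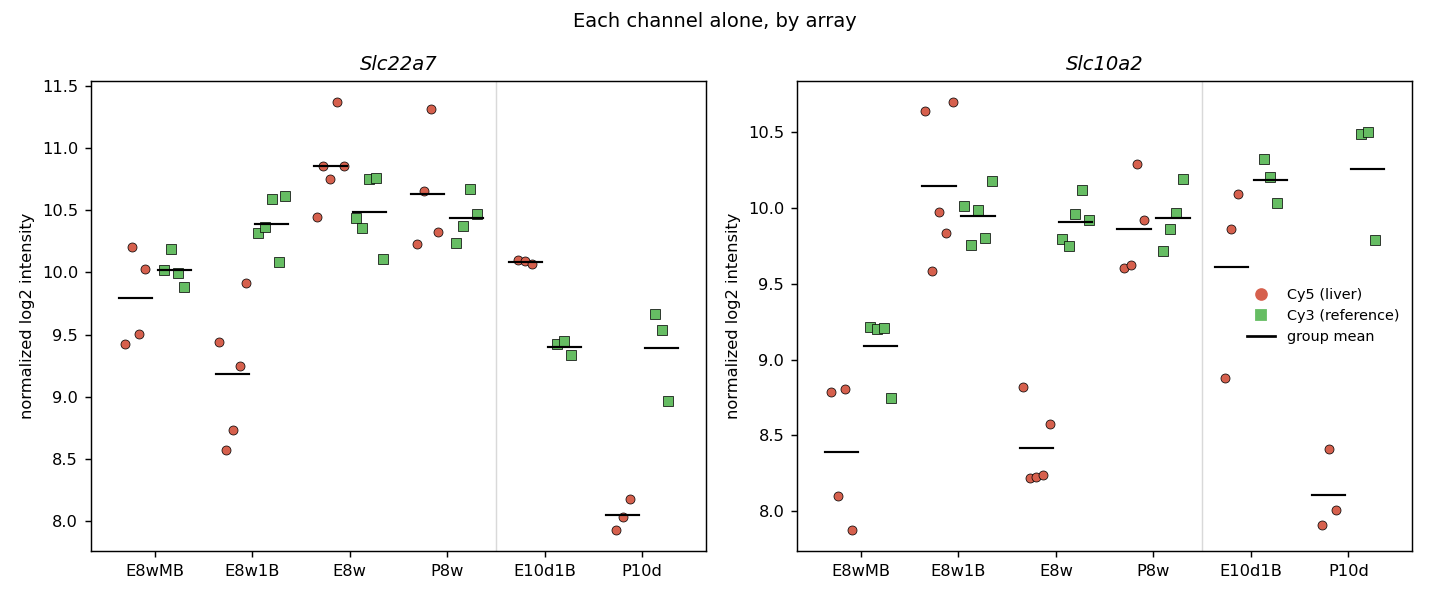
Normalized log2 intensity of Slc22a7 and Slc10a2 in each channel alone, one point per array, with circles for liver (Cy5), squares for the reference (Cy3) and bars at group means. Within the first scan the reference stayed level while liver signal moved, and the reference of Slc10a2 was lower in E8wMB by 0.84 on the log2 scale than in P8w.

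The promoters of 8 members are held by RefSeq's table for GRCm38.p6, as 10 windows from 250 bases before to 50 bases after a start. Abcc3 and Slc22a7 are named only. Those of Slc10a2, Slco1b2, Abcb11 and Abcc4 are shown from 5′ to 3′ on the strand of the gene. Slc10a2 and Slco1b2 moved in opposite directions in E8w1B against E8w. Abcb11 and Abcc4 stand for canalicular and basolateral export. The letters searched on both strands were AGGTCA (nuclear receptor half-site), TGACNNNGC (antioxidant response element core), GTTAATNA (HNF1 half-site) and TTGCGCAA (C/EBP palindrome), and capitals mark every match. The windows are chr8:5105238-5105537 (minus strand), chr6:141629268-141629567 (plus strand), chr2:69342567-69342866 (minus strand) and chr14:118706170-118706469 (minus strand, the first of 2 starts).
Slc10a2: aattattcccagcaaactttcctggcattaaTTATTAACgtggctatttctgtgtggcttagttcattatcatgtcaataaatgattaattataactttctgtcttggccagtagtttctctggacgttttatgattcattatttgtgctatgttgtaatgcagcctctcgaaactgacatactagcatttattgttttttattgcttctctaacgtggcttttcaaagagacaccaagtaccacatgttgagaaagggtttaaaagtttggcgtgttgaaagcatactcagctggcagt
Slco1b2: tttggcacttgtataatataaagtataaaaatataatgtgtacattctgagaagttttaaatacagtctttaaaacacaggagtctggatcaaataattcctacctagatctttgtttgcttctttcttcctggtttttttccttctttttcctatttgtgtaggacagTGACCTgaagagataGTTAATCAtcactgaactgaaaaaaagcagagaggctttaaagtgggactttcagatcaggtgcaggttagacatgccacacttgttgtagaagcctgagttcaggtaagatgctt
Abcb11: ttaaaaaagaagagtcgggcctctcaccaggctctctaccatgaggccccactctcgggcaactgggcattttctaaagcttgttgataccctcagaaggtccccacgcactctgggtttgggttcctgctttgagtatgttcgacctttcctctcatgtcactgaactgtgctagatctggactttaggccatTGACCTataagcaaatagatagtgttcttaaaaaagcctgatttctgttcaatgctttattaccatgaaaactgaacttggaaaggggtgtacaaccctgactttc
Abcc4: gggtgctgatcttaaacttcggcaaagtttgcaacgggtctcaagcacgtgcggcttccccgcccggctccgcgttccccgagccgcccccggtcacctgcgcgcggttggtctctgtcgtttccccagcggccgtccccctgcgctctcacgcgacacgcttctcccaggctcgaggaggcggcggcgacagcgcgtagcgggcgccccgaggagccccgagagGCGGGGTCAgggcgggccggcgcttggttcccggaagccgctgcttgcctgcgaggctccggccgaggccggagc
Slc10a2 held 1 match to the HNF1 half-site, 219 bases before its start, and Slco1b2 held 1 at 66 bases. The nuclear receptor half-site lay 56 bases before the start of Abcb11, in the minus orientation, and 81 bases before that of Slco1b2. The antioxidant response element core lay 25 bases before the first start of Abcc4 and 23 bases before its second. Over 32815 promoter windows of the same length, 16.3% held the nuclear receptor half-site, 12.4% the antioxidant core, 2.54% the HNF1 half-site and 0.183% the C/EBP palindrome. Of the 10 member windows, 4 held the nuclear receptor half-site, 3 the antioxidant core, 2 the HNF1 half-site and 0 the palindrome. A match describes letters in these windows and no binding.

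Of the canalicular exporters Abcb11, Abcb4 and Abcc2, 0 of 3 were called in E8w1B against E8w with marked spots left out and no slide term. Abcb11 encodes the bile salt export pump. Its log2 ratio was -0.48, -0.33, -0.60, -0.31 and -0.70 in E8w1B, against -0.11 and -0.27 on the 2 unmarked E8w arrays and 0.12 on 1 unmarked P8w array. All E8w1B arrays were below the others, and the difference from E8w was -0.30 (SE 0.13, limma adjusted p = 0.159). With slide as a fixed term it was called (-0.47, adjusted p = 0.0424), as it was in the deposited table (-0.57, adjusted p = 0.00198). With marked spots kept, P8w had 0.16, 0.20, 0.13 and 0.12, and Abcb11 fell by 0.63 in E8w1B against P8w (SE 0.10, limma adjusted p = 6.93e-05) and by 0.50 against E8w (limma adjusted p = 0.000474), with no overlap in either. At 10 days Abcb11 had 0.23, -0.05 and 0.11 in E10d1B, against -0.63, -0.44 and -0.30 in P10d. The groups did not overlap and it rose by 0.55 (SE 0.13, limma adjusted p = 0.0167), a call that was lost under 5 other settings, the slide block among them (0.40, adjusted p = 0.141), and without any one of 4 arrays (E10d1B replicates 1 and 3, P10d replicates 1 and 2). With marked spots kept, the difference between the 8-week and 10-day effects on Abcb11 was -1.20 (SE 0.16, limma adjusted p = 3.64e-05).

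Abcb4 encodes the canalicular phospholipid floppase. Its log2 ratio was -0.62, 0.08, 0.23, -0.07 and -0.41 in E8w1B, against 0.45, -0.05, 0.21 and 0.43 in P8w. The groups overlapped, and the difference was -0.42 (SE 0.14, limma adjusted p = 0.0491), lower on 2 of 4 shared slides. This call held under only 5 of 12 other settings. It was lost with slide added as a fixed term (adjusted p = 0.136) and with Cy5 alone (adjusted p = 0.22), among others. Leaving out any one of 6 arrays also ended it (E8w1B replicates 1, 4 and 5, P8w replicates 1, 3 and 4). The second probe of Abcb4 gave -0.315 (SE 0.18, limma adjusted p = 0.321 over all probes). Abcc2, the canalicular exporter of organic anion conjugates, was called in no comparison of these ratios. With Cy5 alone it was called in 4 comparisons, all between scans (2.48 in E8wMB against P8w and -0.80 in P8w against P10d among them). Its difference was -0.225 (SE 0.14, limma adjusted p = 0.344) in E8w1B against P8w, -0.14 (SE 0.13) in E8w1B against E8w and -0.35 (SE 0.17, limma adjusted p = 0.277) in E10d1B against P10d.

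**Figure D3:**
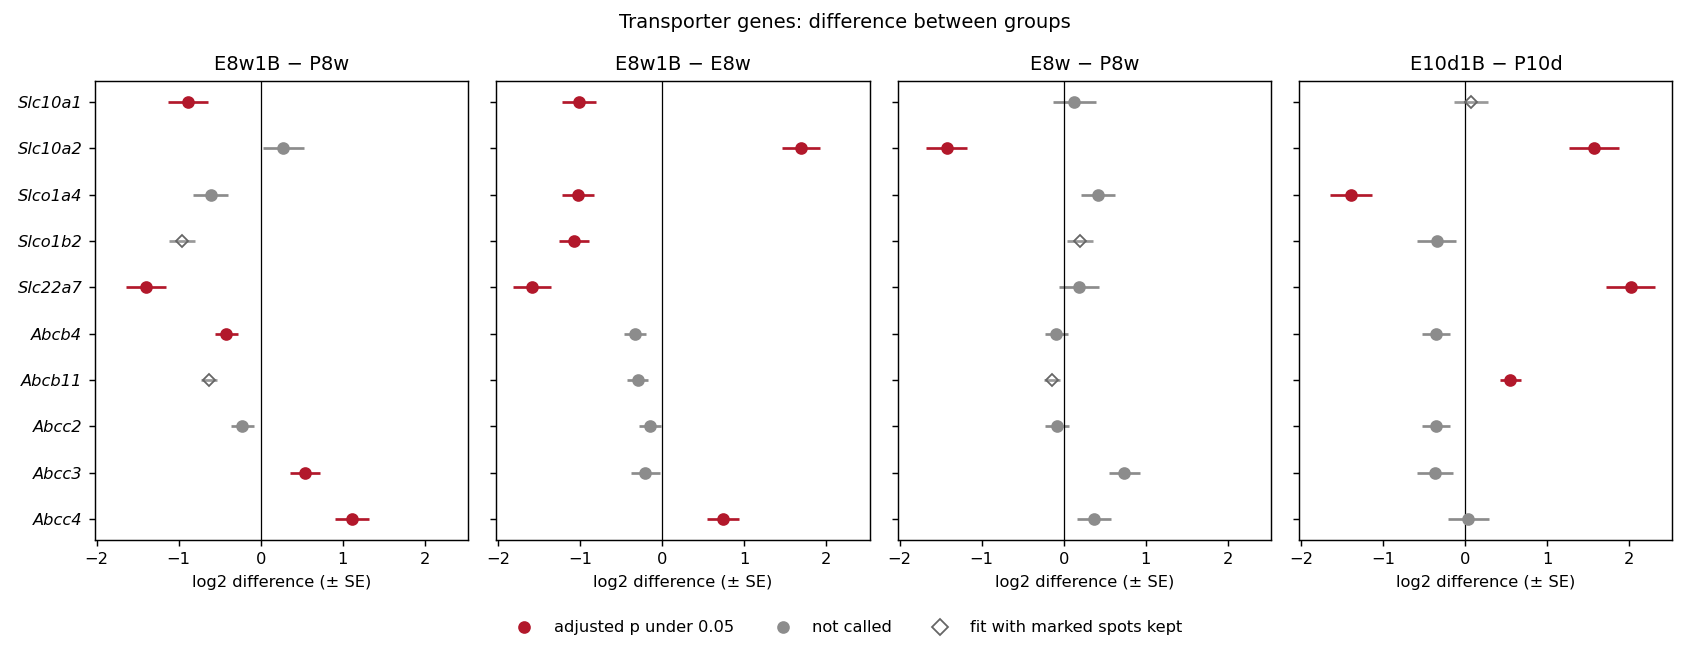
Log2 differences with their SE for the 10 genes in 4 comparisons, with red points for adjusted p under 0.05 and open diamonds where only the fit with marked spots kept gave a value. Slc22a7 lay at -1.40 in E8w1B against P8w and at 2.02 in E10d1B against P10d.

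On the basolateral side Abcc4 (NM_001033336) and Abcc3 encode exporters that return bile acids and conjugates to blood. Abcc4 had log2 ratios of -0.61, 0.58, 0.09, -0.08 and 0.95 in E8w1B, against -0.51, -1.13, -0.89 and -1.19 in P8w. In E8w it had -0.71, -0.29, -0.30, -0.85 and -0.62. E8w1B replicate 1 lay within the range of both other groups and the other 4 lay above them. Abcc4 rose by 1.11 against P8w (SE 0.21, limma adjusted p = 0.000527), a 2.16-fold difference that was higher on 4 of 4 shared slides. Against E8w it rose by 0.74 (SE 0.19, limma adjusted p = 0.00994), higher on 5 of 5 slides, and this call was lost with Cy5 alone (adjusted p = 0.0713) and with only the compared groups in the fit (adjusted p = 0.0638). The second probe of Abcc4 gave 1.07 (SE 0.26, limma adjusted p = 0.00799 over all probes) against P8w, from a dimmer signal that was above background on 12 of 24 arrays. At 10 days Abcc4 differed by 0.04 (SE 0.25, limma adjusted p = 0.964).

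Abcc3 had log2 ratios of -0.46, 0.25, -0.12, 0.08 and -0.35 in E8w1B, against -0.32, -1.37, -0.67 and -0.27 in P8w. P8w replicate 2 was the lowest array, and the groups overlapped. The difference was 0.54 (SE 0.18, limma adjusted p = 0.0462), and it was lost under 8 other settings, the slide block among them (adjusted p = 0.0601). Without P8w replicate 2 it was 0.30 (adjusted p = 0.213), and it was also lost without P8w replicate 3 or any one of E8w1B replicates 2, 3 and 4. E8w differed from P8w by 0.74 (SE 0.19, limma adjusted p = 0.149). Those groups did not overlap, though they did with marked spots kept, a fit that reads the other probe. With the binge added to 8 weeks of ethanol, Abcc3 did not rise. E8w1B differed from E8w by -0.20 (SE 0.18, limma adjusted p = 0.555), lower on 4 of 4 shared slides.

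For E8wMB the 2 channels have to be read apart. The labels describe the Cy3 reference alike for every array and do not say whether it was 1 lot of RNA. A different lot would make a ratio across scans hold the difference between lots as well as that between livers, and this was not tested. For Abcc2 the reference was higher in E8wMB than in P8w by 2.62 on the log2 scale, for Slco1a4 by 1.68, for Abcb4 by 1.22 and for Abcc4 by 1.19, and for Slc10a2 it was lower, with a difference of -0.84. Across genes, Cy3 correlated at a median r of 0.914 between arrays of the E8wMB scan and of the first scan and 0.983 within the first scan. Median centring or Cy5 alone moved the median of all genes in the comparisons of E8wMB by up to -0.14 on the log2 scale, against -0.02 with loess ratios. Abcc4 had log2 ratios of 0.14, 0.32, 0.11 and 0.44 in E8wMB, all above its 4 P8w values and all 5 E8w values. Its difference was 1.18 (SE 0.22, limma adjusted p = 0.000768) against P8w and 0.80 (SE 0.21, limma adjusted p = 0.00616) against E8w. In Cy5 alone these were 2.37 and 1.93. Abcc3 was higher than in P8w by 0.82 (SE 0.20, limma adjusted p = 0.00747), and by 0.48 (adjusted p = 0.0931) with marked spots kept, a fit that reads its other probe. The part of the third scan in these results was not tested.

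Slc10a2 had log2 ratios of -0.43, -1.10, -0.40 and -0.87 in E8wMB, below every E8w1B array and overlapping those of E8w. Against E8w1B it fell by 0.90 (SE 0.25, limma adjusted p = 0.00881), and the Cy5 difference was -1.76. Against E8w it was higher by 0.79 (SE 0.25, limma adjusted p = 0.0218), while Cy5 alone gave -0.02 and Cy3 alone -0.82, so that the whole of this ratio difference lay in the reference channel. The call was also lost with median centring (0.59, adjusted p = 0.0756), with marked spots kept (0.52, adjusted p = 0.149), with the mean of probes (0.66, adjusted p = 0.0675) and without any one of E8wMB replicates 1 and 3 and E8w replicates 3 and 4. The other probe of Slc10a2 gave 0.35 (SE 0.30, limma adjusted p = 0.424 over all probes). Slc22a7 had -0.59, 0.01, -0.49 and 0.15 in E8wMB, all above E8w1B, and was higher than there by 0.98 (SE 0.25, limma adjusted p = 0.00449), with Cy5 alone at 0.61 and Cy3 alone at -0.37. Slco1a4 had 0.41 and 0.08 on its 2 unmarked E8wMB arrays and was higher than in E8w1B by 0.89 (SE 0.26, limma adjusted p = 0.0137), with Cy5 alone at 2.69 and Cy3 alone at 1.80, and median centring ended the call (0.62, adjusted p = 0.0878). Slco1b2 was higher by 0.55 (SE 0.20, limma adjusted p = 0.0455), a call lost under 6 other settings and without any one of E8wMB replicates 1, 2 and 4 and E8w1B replicates 1 and 3, with Cy5 alone at 1.15 and Cy3 alone at 0.60. With marked spots kept, Slc10a1 had -0.45, -0.27, -0.59 and -0.20 in E8wMB, below all P8w and E8w arrays, with a difference of -0.805 from E8w (SE 0.17, limma adjusted p = 0.00165) and 0.19 (adjusted p = 0.426) from E8w1B.

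**Figure D4:**
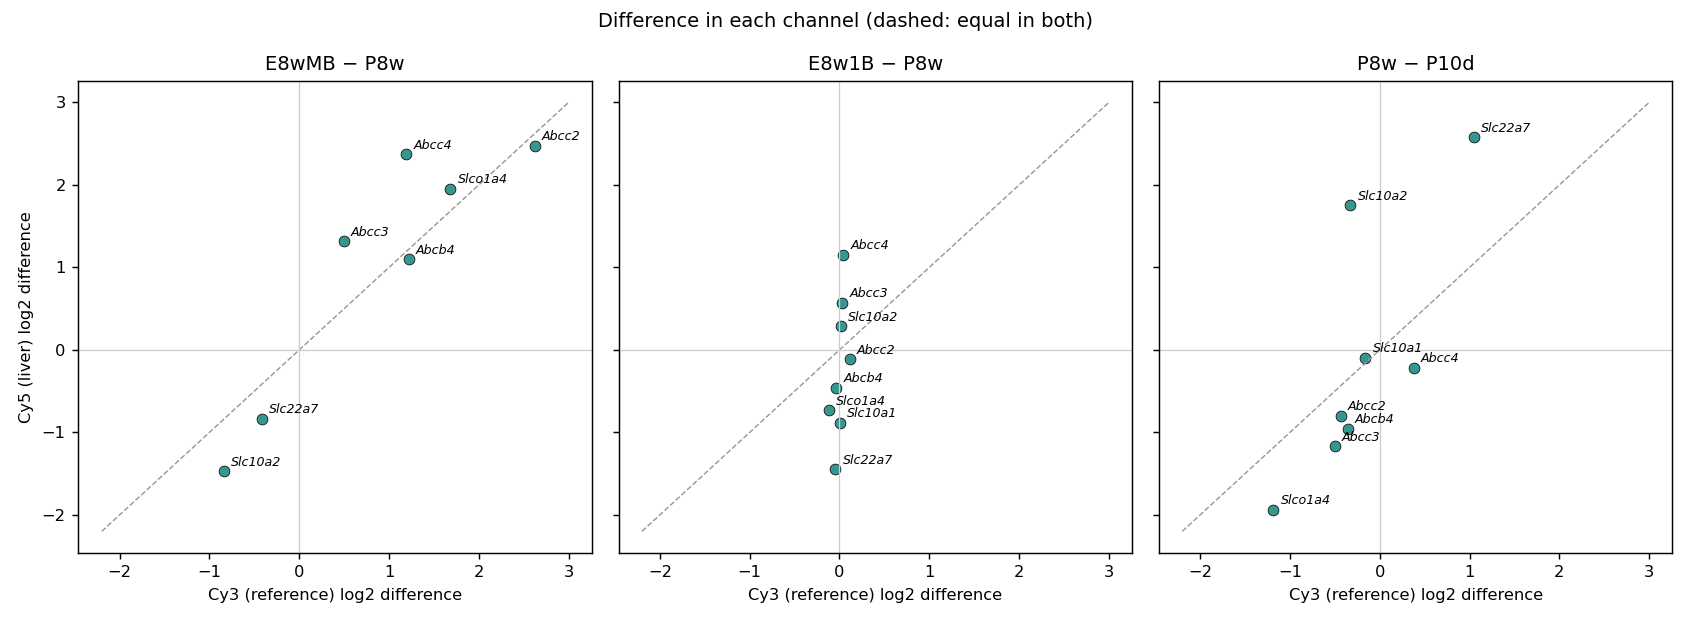
Log2 difference of each member in liver (Cy5, vertical) against that in the reference (Cy3, horizontal) for 3 comparisons, with the dashed line at equal change. In E8w1B against P8w, one scan, Cy3 differences ran close to 0, whereas in E8wMB against P8w Abcc2 lay at 2.62 in Cy3 and 2.48 in Cy5.

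Other genes of bile acid handling were counted from lists written with earlier results of these data known. Beside the counts of this paragraph, 7.5% of all genes tested rose and 8.06% fell in E8w1B against E8w. The shares were 6.98% and 8.39% in E8w1B against P8w, 0.0574% and 0.0803% in E8w against P8w, and 4.16% and 2.84% at 10 days. Among regulators of transporter genes, 1 of 18 rose and 9 fell in E8w1B against E8w, with a median difference of -0.30 beside 0.01 over all genes. They included Nr1h3, the oxysterol receptor LXR alpha (-0.86, SE 0.13, limma adjusted p = 6.03e-05), Ppara, the fatty acid receptor (-1.06, SE 0.18), and Nr0b2, the corepressor SHP that bile acid signalling induces (-1.04, SE 0.21, limma adjusted p = 0.00112). In E8w1B against P8w 0 of 17 rose and 5 fell, among them Nr5a2 (-0.65, SE 0.10), and in E8w against P8w 0 of 17 were called. At 10 days 0 of 18 rose and 2 fell, Ppara (-0.89, SE 0.23) and Klb (-0.67, SE 0.18), and a slide term ended both calls (adjusted p = 0.082 and 0.176).

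Of other liver transporters 3 of 25 rose and 7 fell in E8w1B against E8w, where 7.5% of all genes tested rose and 8.06% fell. Abca1, which exports cholesterol to apolipoproteins, rose (1.095, SE 0.20, limma adjusted p = 0.000452), as did the monocarboxylate carrier Slc16a1 (0.95, SE 0.19), and Abcc6 fell (-0.60, SE 0.11). Slc51a, a subunit of the basolateral organic solute transporter, rose against P8w (0.45, SE 0.10, limma adjusted p = 0.00368). Of bile acid synthesis and conjugation genes 2 of 14 rose and 6 fell in E8w1B against E8w, among them Akr1c6 (-1.31, SE 0.15), Slc27a5, the bile acid CoA ligase (-0.94, SE 0.12), and Akr1d1, a steroid reductase (-1.18, SE 0.20). At 10 days the gene of the muricholic acid enzyme, Cyp2c70, rose (3.68, SE 0.55, limma adjusted p = 0.000208). The pair-fed P10d arrays were low for this gene. P8w, on 2 unmarked arrays of another scan, was higher than P10d by 2.65 (SE 0.61, limma adjusted p = 0.0307).

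NRF2 target genes, whose regulator also acts on Abcc transporters, had 3 of 12 higher and 1 lower in E8w1B against E8w, with Gstm1 at 1.93 (SE 0.35), Gstm3 at 2.10 (SE 0.49) and Txnrd1, thioredoxin reductase, at 0.60 (SE 0.09). Part of the first 2 ratios lay in the reference channel. Cy5 alone was 1.08 and Cy3 alone -0.86 for Gstm1, and 1.58 and -0.52 for Gstm3. For Txnrd1 they were 0.56 and -0.04. Among scaffold and junction genes 3 of 13 rose and 2 fell in that comparison, with radixin, Rdx, which anchors canalicular transporters, at -0.96 (SE 0.16, limma adjusted p = 0.000191). Hepatocyte markers tested in E8w1B against E8w were 6 of 8, of which 0 rose and 2 fell. Their median difference was -0.41, beside 0.01 over all genes. Neutrophil markers had 2 of 5 higher and 1 lower. Endothelial markers had 3 of 6 higher and 2 lower there, stellate cell markers 1 of 6 higher and 2 lower, and Kupffer cell and macrophage markers 0 of 6 higher and 1 lower. Beside all these counts in E8w1B against E8w, 7.5% of all genes tested were higher and 8.06% lower. In E10d1B against P10d, 2 of 6 endothelial markers were higher and 0 lower, with a median difference of 0.35 beside -0.01 over all genes. Of the stellate cell markers 1 of 6 was higher and 0 lower. Of all genes tested, 4.16% were higher and 2.84% lower there. The part of any of these cell types in the transporter results was not tested.

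The gene most like Slc10a1 across the arrays it was measured on was Shmt1, with Pearson r = 0.97 over 13 arrays, as a description. Abcc4 was most like Gstm1 (r = 0.84 over 24 arrays), Slc22a7 like Lsm6 (r = 0.83) and Clec4g (r = 0.82), and Slc10a2 like Scaf4 (r = 0.85), all over 24 arrays that share 3 scans. Among the members themselves Slc10a2 ran against Slco1a4 (r = -0.75) and Slco1b2 (r = -0.76), and Slc22a7 ran with Abcb11 (r = 0.81 over the 14 arrays that measured Abcb11). For the 4 genes with 2 probes, 23 of 25 pairs of probe differences had the same sign and the widest gap was 0.48.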

How the data were processed

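Liver RNA (Cy5) and reference RNA (Cy3) were read from 24 Agilent arrays. The median spot and background intensities, the marks on poor spots and the log10 ratios came from Agilent Feature Extraction 11.5.1.1, per the file headers and the submitters' processing notes. The deposited table of log2 values equals that software's own Cy5 over Cy3 ratio on the log2 scale (slope 1 on each array), and how the authors chose its probes is not given in the sources used here.

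Median intensities were background-corrected by normexp with an offset of 50 and loess-normalized within arrays in limma 3.58.1 (R 4.3.3), and marked spots were left out. Each channel alone was taken after loess and Aquantile scaling. The filter asked for a Cy5 signal well above background on 3 arrays or more and kept 36620 of 41174 probes, of which 26168 had a name. Names came from either revision of the array design through GRCm38.p6 accessions, 28006 probes in all, and Slco1b2 is named only by the newer one. Of 17904 genes, 6266 had several kept probes, and the brightest with 2 or more unmarked values in each group stood for the gene, which set aside brighter, more often marked probes of Slc10a2, Abcb4 and Abcc3.

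One limma fit with 6 group means gave 9 comparisons, with Benjamini-Hochberg adjustment over all genes tested. The members and gene lists were chosen with earlier results of these data known. For each list the named genes were up to 3 with the lowest adjusted p among those called in a comparison, of which some are given, and the genes most alike were the highest in Pearson r. On simulated data the fit recovered 97.9% of genes shifted by 1 log2 unit in E8w1B against P8w (17474 genes) and 94.8% in E10d1B against P10d (17410 genes), with 15 and 10 false calls in simulations that also held genes shifted by 1.5. The simulated noise was drawn independently for each array, with no slide or scan effect. These shares therefore do not measure the power on the real arrays, which share slides and scans. The number of arrays limits the precision. Samples that share a replicate number were little more alike than others (median r 0.03 over 52 pairs, against 0.0022 over 186 pairs). Some of those pairs also share a slide. The number was not used for pairing. Arrays of different groups on the same slide were more alike (median r 0.15 over 15 pairs). The main fit holds no slide term, and slide entered only in the alternative fits. Alternatives were the background offset, median centring, the scanner software's ratio, the deposited table, Cy5 alone, no filter on dim probes, marked spots kept, slide as a fixed or random block, the replicate number as a block, only the compared groups, the mean of probes and each replicate left out. No array was left out.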

Additional observations from a re-analysis of the deposited data

Results flagged for a closer look

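The log2 ratio of Slco1a4 in P8w replicate 4 was 0.24, while the other 3 arrays of that group lay between -0.13 and -0.09. Of 28 groups of values tested for such a gap this was the 1 found, and chance gives about 1 in 20. The effect of ethanol plus binge on Slc22a7 differed between 8 weeks and 10 days by -3.42 on the log2 scale (limma adjusted p = 4.04e-05), from -1.40 at 8 weeks, lower in E8w1B than in P8w in all 5 arrays, and 2.02 at 10 days, higher in E10d1B than in P10d in all 3 arrays. The 8-week and 10-day groups also belonged to different scans.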

How the results depend on the processing

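Of 27 member calls, 15 held under every setting that could be fitted and with each replicate left out, among them those of Slc22a7 in E10d1B against P10d, in E8w1B against both other groups and in the difference between 8 weeks and 10 days. Shares of all genes called are given above for the main fit and, in E8w1B against P8w, with marked spots kept. They were not counted under the other settings, so the counts below are not read as particular to the members. In E8w1B against P8w, 5 members were called, 2 with median centring, 2 with Cy5 alone, 3 with slide as a block, 3 with only the compared groups and 8 with marked spots kept, where 10 rather than 8 were tested. In E8wMB against P8w, 2 were called and 7 with Cy5 alone. In E8wMB against E8w, 2 were called, 4 with the deposited table, 5 with Cy5 alone, 4 with only the compared groups and 1 with the mean of probes. In E8wMB against E8w1B, 4 were called, 2 with median centring and 8 with Cy5 alone. In P8w against P10d, 2 were called and 6 with Cy5 alone. For the difference between 8 weeks and 10 days 1 was called, and 2 with the deposited table, with marked spots kept and with slide as a fixed or a random block. Leaving out 1 replicate gave 0 to 1 calls in E8w against P8w, 2 to 4 in E8w1B against P8w, 6 to 7 in E8w1B against E8w, 3 to 4 in E10d1B against P10d, 2 throughout in E8wMB against P8w, 1 to 3 in E8wMB against E8w, 2 to 4 in E8wMB against E8w1B, 1 to 4 in P8w against P10d and 1 to 3 for the difference between 8 weeks and 10 days. Cy5 alone turned the sign of Abcb4 (1.099) and Abcc2 (2.48) in E8wMB against P8w and of Slc10a2 (-0.0246), Slco1a4 (1.56), Abcb4 (1.22) and Abcc2 (2.50) in E8wMB against E8w. The causes were not tested. With the replicate number as a block, 4 members were called in E8w1B against P8w, 3 in E8wMB against E8w1B and 3 in P8w against P10d, and the counts of the other comparisons were as without it. Slide as a fixed block could not be fitted for E8wMB or for P8w against P10d, which share no slides.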
